A study of Mus musculus with 6 samples.

Results

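Adipocyte and lipogenesis genes, 32 of the 27179 genes counted, were followed in quadriceps muscle of mice after deletion of *Dnm1l*, which encodes the mitochondrial fission protein Drp1. The members were chosen by symbol, as markers of fat cells and enzymes of fat synthesis, and all 32 were found, of which 31 passed the filter on low counts. RNA-seq was performed on 3 control libraries (genotype f/f, replicates B, C and D) and 3 miDrp1KO libraries (replicates A, E and F), all from mice on normal chow. According to the methods, the miDrp1KO mice carry floxed *Dnm1l* and HSA-MerCreMer, a tamoxifen-inducible Cre driven by the human skeletal actin promoter. The controls carry floxed alleles, and both groups were injected with tamoxifen at 3 months of age. The Cre is thus directed to muscle fibres and not to fat cells. The results of the study place the RNA-seq of this muscle at 3 weeks after deletion. The methods name male mice studied after hours of fasting, and the study describes these samples as 3 mice a group.

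White adipocytes store triglyceride in a droplet coated by perilipins, secrete hormones such as adiponectin and leptin, and depend on the nuclear receptor PPARγ and the factor C/EBPα for their identity. New fatty acids are made from citrate by ATP-citrate lyase, acetyl-CoA carboxylase and fatty acid synthase, a pathway driven by SREBP1c, and are then elongated, desaturated and joined to glycerol. In skeletal muscle, fat cells lie between fibres and bundles, and a dissected muscle can carry varying amounts of adhering fat, whereas the lipogenic enzymes are also made at low level by the fibres themselves.

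Libraries held from 13989588 to 62042255 counts, and the share of ribosomal RNA ran from 1.47% in miDrp1KO replicate E to 24.4% in replicate F. Levels are given as CPM (counts of a gene scaled to a common library size), corrected by TMM normalization factors, which ran from 0.840 in control replicate B to 1.42 in miDrp1KO replicate E. Values by library are always listed in the order B, C, D for control and A, E, F for miDrp1KO. The deleted gene *Dnm1l* was at 156, 114 and 140 CPM in control and at 70.6, 81.3 and 66.2 CPM in miDrp1KO libraries, with no overlap. Skeletal muscle identity was plain, with 12 fibre markers summing to between 79708 and 179338 CPM per library.

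A list of 7 adipocyte markers (*Adipoq*, *Plin1*, *Cidec*, *Lep*, *Retn*, *Cfd* and *Adrb3*), called adipocyte-restricted here from general knowledge and with earlier results known, had lower means in miDrp1KO than in control quadriceps, at log2 fold changes from −1.47 to −0.89 (median −1.07), although none passed the adjusted threshold and the groups overlapped for 5 of the 7. The 7 genes of fatty acid synthesis ranged from −0.68 to 0.38 (median −0.11), and the difference between these lists was not tested. *Adipoq*, *Plin1*, *Sncg* and *Pck1* stood at between 0.367 and 0.447 of their control means, and in each of them every miDrp1KO library lay below every control library. Of the 31 tested members, 26 had an estimate below 0 and 5 above it. Their median log2 fold change was −0.66, against 0.02 over all 16483 tested genes, of which 48.0% had an estimate below 0. The median of the members was −0.39 without control replicate C. No member had an adjusted p under 0.05 in edgeR's quasi-likelihood test (Benjamini-Hochberg over all tested genes), where 0.0121% of all genes did, and the lowest adjusted p was 0.362, for *Sncg*. At an unadjusted p under 0.05 stood 10 members (32.3%), all of them lower, against 10.9% of all tested genes in either direction, with 6.22% lower and 4.68% higher. In 8 members, all lower, the groups did not overlap (25.8% of those tested), against 10.3% of all tested genes lower and 7.67% higher. Overlap was judged on CPM with TMM factors. Scaled by library totals alone, the groups overlap for *Adipoq*, *Fabp4*, *Pparg* and *Acvr1c*. DESeq2, the tool of the study, gave 15 members an unadjusted p under 0.05 and called 4 of the 19 members that its independent filtering left with an adjusted p, namely *Adipoq*, *Plin1*, *Sncg* and *Pck1*, where it called 1.18% of the genes with an adjusted p. With that filtering set to a threshold of 0.05, DESeq2 called 1 member, *Cfd*, and without the filtering 3, *Adipoq*, *Sncg* and *Pck1*.

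**Figure D1:**
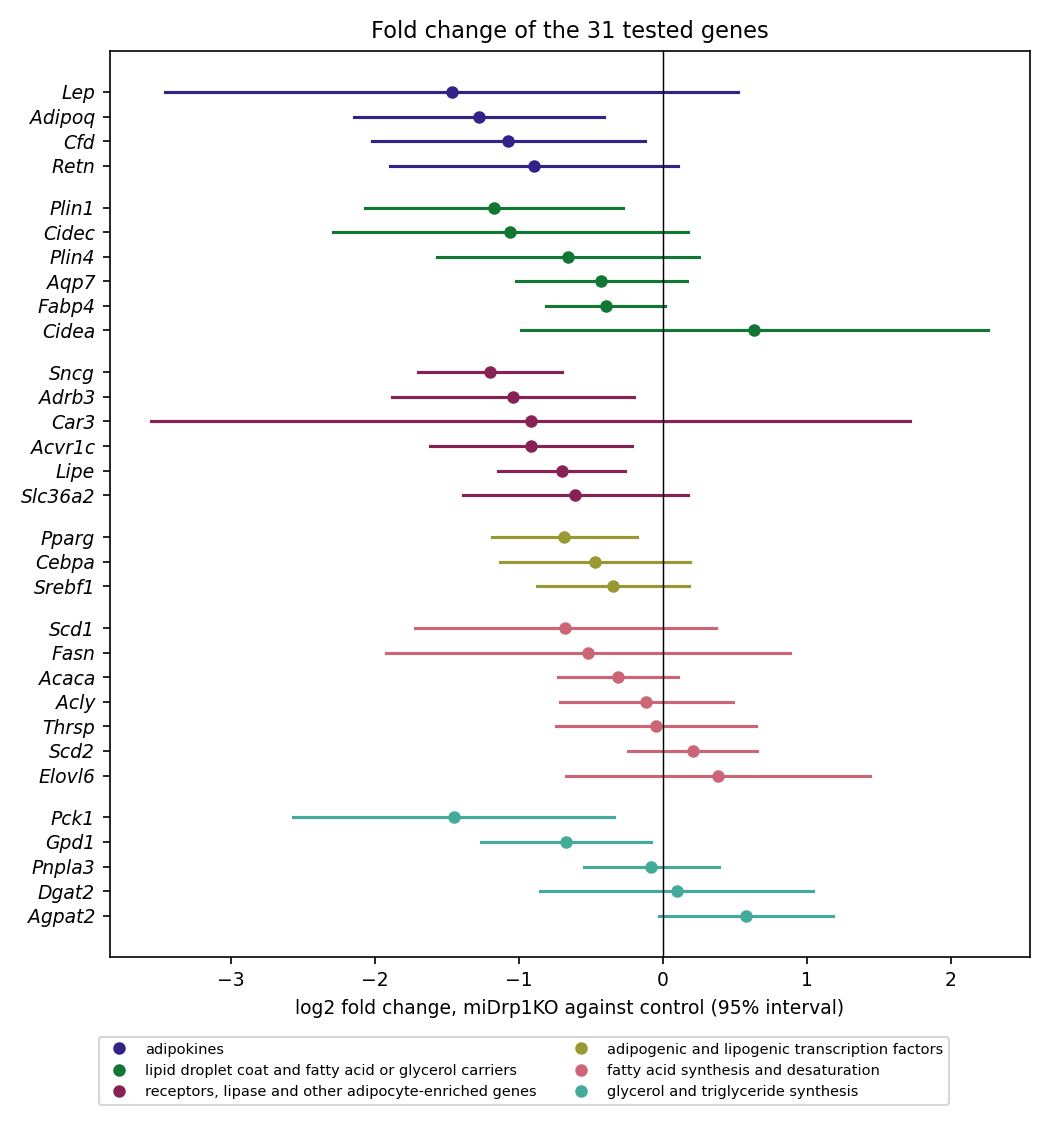
Log2 fold change of each of the 31 tested genes in miDrp1KO against control muscle (points, edgeR) with its 95% interval (lines), coloured by functional group. All 4 adipokines lie left of 0, with intervals that include 0 for Lep and Retn. The 7 genes of fatty acid synthesis lie between −0.68 and 0.38 with intervals that all include 0. The difference between these groups of genes was not tested.

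The adipokines are the hormones and secreted proteins of fat cells. *Adipoq* (Entrez 11450, chromosome 16, 23146536 to 23157968, GRCm38) encodes adiponectin. Its level was 23.9, 52.9 and 40.0 CPM in control and 17.5, 9.78 and 21.1 CPM in miDrp1KO libraries. The lowest control library and the highest miDrp1KO library were thus close to each other, although the groups did not overlap. The means were 38.9 ± 14.6 and 16.1 ± 5.77 CPM (SD, n = 3 each), a log2 fold change of −1.28 with a standard error of 0.37 (95% interval −2.15 to −0.41, edgeR unadjusted p = 0.0103, adjusted p = 0.382). In this bulk tissue, fewer fat cells and less RNA per fat cell cannot be told apart.

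*Cfd* (Entrez 11537, chromosome 10, 79890853 to 79892655) encodes complement factor D, or adipsin. It was at 121, 254 and 178 CPM in control and at 92.6, 46.3 and 124 CPM in miDrp1KO muscle, so that miDrp1KO replicate F was level with control replicate B. Its log2 fold change was −1.07 ± 0.40 (standard error, edgeR adjusted p = 0.418). *Retn*, which encodes resistin, was at 6.58, 15.2 and 11.4 CPM in control and at 5.44, 3.38 and 9.17 CPM in miDrp1KO muscle, with a log2 fold change of −0.89 (edgeR adjusted p = 0.507). *Lep*, the gene of leptin, spread most among the adipokines, with 4.12, 13.4 and 7.53 CPM in control and 6.08, 1.05 and 2.06 CPM in miDrp1KO libraries. Its log2 fold change of −1.47 had a 95% interval from −3.45 to 0.52, which covers 0, and was −2.43 without miDrp1KO replicate A.

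**Figure D2:**
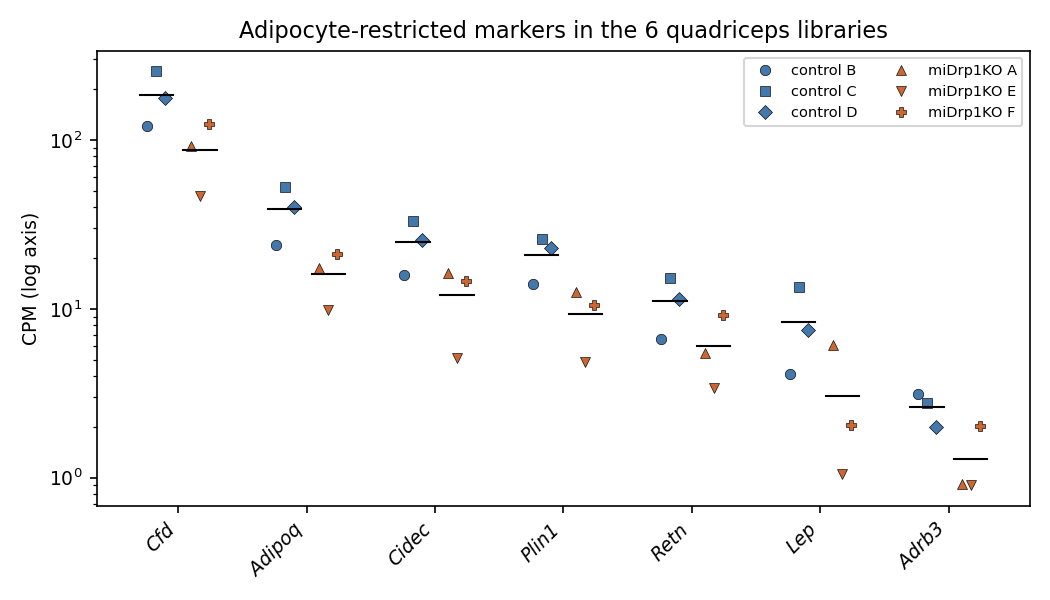
CPM (log axis) of the 7 adipocyte-restricted markers in each library, control in blue and miDrp1KO in orange, with one symbol per library and a black line at the group mean. On these CPM, corrected by TMM factors, control replicate C is the highest library for 6 of the 7 genes and miDrp1KO replicate E the lowest for all 7.

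Promoter sequences are shown for a pair of adipokines, *Adipoq* and *Lep*, and for 1 lipogenic enzyme, *Acly*. They set the start regions of fat cell hormones beside that of an enzyme whose log2 fold change was −0.11. The groups overlapped for *Lep* as for *Acly*, and did not for *Adipoq*. RefSeq start sites on GRCm38.p6 were matched for 23 of the 32 members, with 31 windows in all, and the 250 bases before each start were searched on both strands for AGGTCA (a half-site of PPARγ), TTGCNNAA (C/EBP), CACGTG (E-box), CCAAT and TATAAA. Capitals mark the matches, none of which overlap in the 3 windows printed 5′ to 3′ on the strand of the gene. No match says only that these letters are not in the window. *Adipoq* is at chr16:23146286-23146535 (+ strand), with 3 CCAAT boxes beginning 34, 27 and 7 bases before the start. *Lep* is at chr6:29059971-29060220 (+ strand), with 1 C/EBP match beginning 55 bases before it. *Acly* is at chr11:100528001-100528250 (− strand), with 1 half-site beginning 40 bases before it.
Adipoq: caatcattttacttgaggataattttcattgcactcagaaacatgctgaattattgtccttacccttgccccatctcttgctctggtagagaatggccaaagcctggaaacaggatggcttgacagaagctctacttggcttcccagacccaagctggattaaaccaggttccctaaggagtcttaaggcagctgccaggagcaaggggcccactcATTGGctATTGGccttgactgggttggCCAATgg
Lep: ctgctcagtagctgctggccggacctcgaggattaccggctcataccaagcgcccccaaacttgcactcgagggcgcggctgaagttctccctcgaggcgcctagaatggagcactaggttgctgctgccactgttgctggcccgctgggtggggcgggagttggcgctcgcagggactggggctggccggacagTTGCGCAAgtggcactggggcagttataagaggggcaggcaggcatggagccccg
Acly: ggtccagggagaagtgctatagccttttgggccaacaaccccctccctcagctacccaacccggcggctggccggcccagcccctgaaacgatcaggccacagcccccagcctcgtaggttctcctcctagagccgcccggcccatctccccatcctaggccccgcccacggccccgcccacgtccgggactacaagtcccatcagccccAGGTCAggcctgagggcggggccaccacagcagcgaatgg

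Over the 31 windows of members, the half-site was present in 7 (22.6%, against 14.0% of all 32851 windows), the C/EBP letters in 4 (12.9% against 9.56%), CCAAT in 9 (29.0% against 33.8%), TATAAA in 2 (6.45% against 12.4%) and the E-box in 1 (3.23% against 6.02%). These shares are descriptions, and several windows belong to the same gene.

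Genes of the lipid droplet and of fatty acid transport came next. *Plin1* (Entrez 103968, chromosome 7, 79721164 to 79732904), the droplet coat protein of adipocytes, was at 14.0, 25.8 and 22.8 CPM in control and at 12.6, 4.83 and 10.5 CPM in miDrp1KO libraries. Its groups did not overlap, and the log2 fold change was −1.17 (standard error 0.38, edgeR unadjusted p = 0.0175, adjusted p = 0.392). *Cidec*, which promotes droplet fusion, was at 15.9, 33.3 and 25.7 CPM in control and 16.4, 5.12 and 14.6 CPM in miDrp1KO muscle, with 1 miDrp1KO library (A) inside the control range. *Fabp4* (Entrez 11770), the fatty acid binding protein of adipocytes that endothelium also makes, was at 243, 296 and 270 CPM in control and 174, 213 and 226 CPM in miDrp1KO libraries. Its groups did not overlap but the difference was small, with a log2 fold change of −0.40 (95% interval −0.81 to 0.02, edgeR adjusted p = 0.474). *Aqp7*, a glycerol channel, was at 10.2 ± 3.39 CPM in control and 7.63 ± 1.77 CPM in miDrp1KO muscle (SD, n = 3 each).

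*Plin4*, a droplet coat gene that muscle fibres also express, did not follow the library order of *Plin1*. It was at 552, 558 and 457 CPM in control and 548, 284 and 159 CPM in miDrp1KO libraries. Replicate A was thus at the control level, and replicate F, not E, was the lowest. The log2 fold change of *Plin4* was −0.66 (95% interval −1.57 to 0.25), and was −1.22 without miDrp1KO replicate A and −0.31 without replicate F. *Cidea*, a droplet gene of brown fat, had between 4 and 52 counts per library, with a mean of 0.864 ± 0.325 CPM in control and 1.31 ± 1.15 CPM in miDrp1KO muscle (SD, n = 3 each). Its estimate was higher in miDrp1KO muscle by a log2 fold change of 0.64 and turned to −0.14 without miDrp1KO replicate F.

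Among receptors, the lipase and other genes enriched in fat cells, *Sncg* (Entrez 20618, chromosome 14, 34370274 to 34374669) had the lowest p of all members. It encodes γ-synuclein, which is made by adipocytes as well as by neurons. Its level was 16.0, 27.8 and 21.9 CPM in control and 10.3, 7.53 and 10.8 CPM in miDrp1KO libraries, without overlap. The log2 fold change was −1.20 (standard error 0.23, 95% interval −1.70 to −0.70, edgeR unadjusted p = 0.000245, adjusted p = 0.362), and the adjusted p ran from 0.00304 to 0.877 over the alternatives that gave one.

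*Lipe* (Entrez 16890), which encodes hormone-sensitive lipase, was at 16.1, 20.6 and 20.6 CPM in control and 13.9, 8.92 and 12.5 CPM in miDrp1KO muscle, without overlap. Its log2 fold change was −0.70 (standard error 0.20, edgeR unadjusted p = 0.00473, adjusted p = 0.370). *Acvr1c*, the activin receptor ALK7 of adipocytes, was at 9.67 ± 2.72 CPM in control and 5.15 ± 1.91 CPM in miDrp1KO muscle (SD, n = 3 each), also without overlap. *Adrb3*, the β3-adrenergic receptor of fat, was at 3.13, 2.77 and 1.98 CPM in control and 0.923, 0.907 and 2.02 CPM in miDrp1KO libraries, where replicate F lay within the control range. *Slc36a2*, an amino acid transporter of brown fat, was at 2.97 ± 1.12 CPM in control and 1.95 ± 0.611 CPM in miDrp1KO muscle (SD, n = 3 each).

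*Car3* and *Ucp1* stood apart from the others of this group. *Car3* encodes carbonic anhydrase 3, abundant in adipocytes and in slow muscle fibres. It was at 285, 1144 and 184 CPM in control and 565, 120 and 169 CPM in miDrp1KO libraries, the widest spread of all tested members, with a biological coefficient of variation of 0.788. Its log2 fold change was −0.92 (95% interval −3.55 to 1.72) and turned to 0.27 without control replicate C. *Ucp1*, the uncoupling protein that defines brown fat, did not pass the filter on low counts. It had 1, 2 and 12 counts in control and 13, 9 and 8 counts in miDrp1KO libraries. Scaled to library size, these were 0.0473, 0.146 and 0.200 CPM in control and 0.632, 0.221 and 0.384 CPM in miDrp1KO libraries, so that every miDrp1KO library lay above every control library, the only member of which this held. With at most 13 counts in any library, *Ucp1* was at the edge of detection and was not tested in the main edgeR fit.

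The 3 transcription factors all had estimates below 0, as did 48.0% of all tested genes. Of the 3, 1 (33.3%) stood at an unadjusted p under 0.05 in edgeR's test, and was lower. The share of all tested genes at such a p was 6.22% lower and 10.9% in either direction. *Pparg* (Entrez 19016, chromosome 6, 115360879 to 115490404), the master regulator of adipogenesis, was at 5.54, 9.26 and 7.95 CPM in control and 4.57, 4.29 and 5.28 CPM in miDrp1KO muscle. The groups did not overlap, though by a narrow margin, at a log2 fold change of −0.68 (standard error 0.23, edgeR unadjusted p = 0.0122, adjusted p = 0.382). *Cebpa* was at 7.26 ± 1.25 CPM in control and 5.29 ± 2.03 CPM in miDrp1KO muscle, and *Srebf1*, the gene of SREBP1, at 34.9 ± 13.2 and 27.4 ± 2.01 CPM (SD, n = 3 each). Both overlapped between the groups, with 95% intervals of −1.13 to 0.19 and −0.88 to 0.18 on the log2 scale.

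None of the 7 genes of fatty acid synthesis and desaturation had an unadjusted p under 0.05 in edgeR's test, and none had groups that did not overlap. With 10.9% of all tested genes at such a p and 18.0% without overlap, 0 of 7 is near the background. DESeq2 gave *Scd1* an unadjusted p of 0.0420 and an adjusted p of 0.309, and the other genes of this list an unadjusted p above 0.05. *Fasn* (Entrez 14104), fatty acid synthase, was at 50.6, 136 and 91.5 CPM in control and 35.4, 48.3 and 110 CPM in miDrp1KO libraries. *Scd1*, the main stearoyl-CoA desaturase, was at 262, 878 and 548 CPM in control and 271, 282 and 503 CPM in miDrp1KO libraries. For both enzymes the range within each group was wider than the difference between the means, and the log2 fold changes were −0.52 (95% interval −1.92 to 0.89) and −0.68 (−1.72 to 0.37). Without control replicate C they were −0.16 for *Fasn* and −0.23 for *Scd1*, and without miDrp1KO replicate F that of *Fasn* was −1.12. *Acly*, ATP-citrate lyase, was at 27.5, 56.9 and 37.1 CPM in control and 30.6, 34.6 and 46.9 CPM in miDrp1KO muscle, a log2 fold change of −0.11 that turned to 0.11 with library totals alone and to 0.18 without control replicate C. *Acaca*, acetyl-CoA carboxylase 1, was at 27.2 ± 4.57 and 21.9 ± 4.39 CPM (SD, n = 3 each).

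*Elovl6*, the elongase of long fatty acids, was at 2.75, 6.56 and 4.90 CPM in control and 3.01, 5.79 and 9.60 CPM in miDrp1KO muscle, with a log2 fold change of 0.38 that turned to −0.06 without miDrp1KO replicate F. *Scd2*, a close relative of *Scd1*, was steady in control, at 24.1, 24.7 and 27.7 CPM, and at 20.2, 34.4 and 33.7 CPM in miDrp1KO muscle. How reads shared by such copies were counted was not stated, so values of the pair are uncertain to that extent. *Thrsp*, a lipogenic regulator known as Spot 14, was at 11.1 ± 3.10 and 10.7 ± 4.65 CPM (SD, n = 3 each), with a 95% interval of −0.74 to 0.65 on the log2 scale. The intervals of *Fasn*, *Scd1* and *Elovl6* reach beyond a log2 fold change of 1 in size and those of the other 4 stay within it, and none of the 7 shows that the groups were alike.

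The order of the miDrp1KO libraries, but not that of the control libraries, differed between these enzymes and the fat cell markers. In the 7 fatty acid synthesis genes, miDrp1KO replicate A was the lowest of its group for all 7 and replicate F the highest for 6. In the 7 adipocyte-restricted markers, replicate E was the lowest for all 7, with A the highest of the group for 3 and F for 4. Control replicate B was the lowest control library for all 7 synthesis genes and for 6 of the 7 markers, and control replicate C the highest for 6 of each. These orders were judged on CPM with TMM factors, which were 0.846 for A, 1.42 for E and 1.04 for F. Scaled by library totals alone, A and not E was the lowest for *Retn* and *Adrb3*. On that scale E and not F was the highest for *Acly* and *Acaca*.

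Of the 5 genes of glycerol and triglyceride synthesis, 3 had an estimate below 0 and 2 above it. None had an adjusted p under 0.05 in edgeR's test. *Pck1* (Entrez 18534, chromosome 2, 173153073 to 173159274), which supplies glycerol phosphate in adipocytes, was at 26.6, 44.3 and 37.0 CPM in control and 19.4, 5.81 and 14.4 CPM in miDrp1KO libraries. The groups did not overlap, at a log2 fold change of −1.45 (standard error 0.46, edgeR unadjusted p = 0.0186, adjusted p = 0.393 and from 0.00805 to 0.877 over the same alternatives). *Gpd1*, glycerol-3-phosphate dehydrogenase, which fibres also make, was at 264, 416 and 368 CPM in control and 301, 154 and 204 CPM in miDrp1KO muscle, with replicate A above control replicate B (log2 fold change −0.67, edgeR unadjusted p = 0.0291). *Agpat2*, which makes phosphatidic acid, had the opposite direction, with 3.88, 3.43 and 3.03 CPM in control and 3.31, 5.44 and 6.62 CPM in miDrp1KO muscle (log2 fold change 0.58, 95% interval −0.02 to 1.18). *Dgat2*, the last step of triglyceride synthesis, was at 21.0 ± 6.37 and 22.4 ± 10.2 CPM, and *Pnpla3* at 4.72 ± 0.729 and 4.50 ± 0.193 CPM in control and miDrp1KO muscle (SD, n = 3 each).

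Levels between genes were compared as CPM per kilobase of exon, from GENCODE models on GRCm38. In control muscle the highest levels per kilobase were those of *Car3* (320), *Fabp4* (301), *Cfd* (199.997), *Gpd1* (122) and *Scd1* (116). *Car3* came first only through control replicate C, and without it stood at 139.8, below *Fabp4* (286) and *Cfd* (162). *Scd1* stood at 83.8 without that library, below *Plin4* (87.3). With all 3 control libraries, *Adipoq* stood at 30.1 and *Plin1* at 5.39, while *Ucp1* was the lowest of the members at 0.0801. In miDrp1KO muscle *Fabp4* (228) stood above *Car3* (170), whose spread covered that difference.

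The spread between libraries of one group was larger for these genes than for most. The median biological coefficient of variation of the tested members was 0.300, against 0.227 over all tested genes, and 24 of the 31 members lay above that value. *Lep* (0.627), *Cidea* (0.580), *Fasn* (0.469) and *Cidec* (0.417) were among the most variable, and *Fabp4* (0.195) and *Pnpla3* (0.199) the least. The 95% interval of the log2 fold change included 0 for 21 of the 31. Leaving out 1 library also moved the log2 fold change by over 1.5 times without turning its sign for *Cidec* (−0.68 without miDrp1KO replicate E), *Retn* (−0.59 without E), *Cebpa* (−0.17 without E), *Srebf1* (−0.03 without control replicate C), *Acaca* (−0.17 without A), *Agpat2* (0.38 without F), *Scd2* (0.08 without E), *Aqp7* (−0.18 without control replicate B) and *Slc36a2* (−0.37 without control replicate C).

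The 7 adipocyte-restricted markers were also summed in each library. The sum was 189, 398 and 287 CPM in control and 152, 71.4 and 183 CPM in miDrp1KO libraries. Control replicate B and miDrp1KO replicate F were almost level, and the highest library was 2.11 times the lowest in control and 2.57 times in miDrp1KO muscle. The miDrp1KO mean was 0.465 of the control mean (135 ± 57.7 against 291 ± 105 CPM, SD, n = 3 each), and from 0.387 to 0.578 with each library left out in turn. *Cfd* carried most of this sum. The median log2 fold change of the 7 genes was −1.07, with 7 of 7 lower (48.0% of all tested genes were) and 4 (57.1%) at an unadjusted p under 0.05, all lower, against 6.22% of all tested genes lower. None of the 7 had an adjusted p under 0.05 in edgeR's test. The 35 tested adipocyte genes outside the members, given below, had a median of −0.20, with 24 estimates below 0 and 11 above it.

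**Figure D3:**
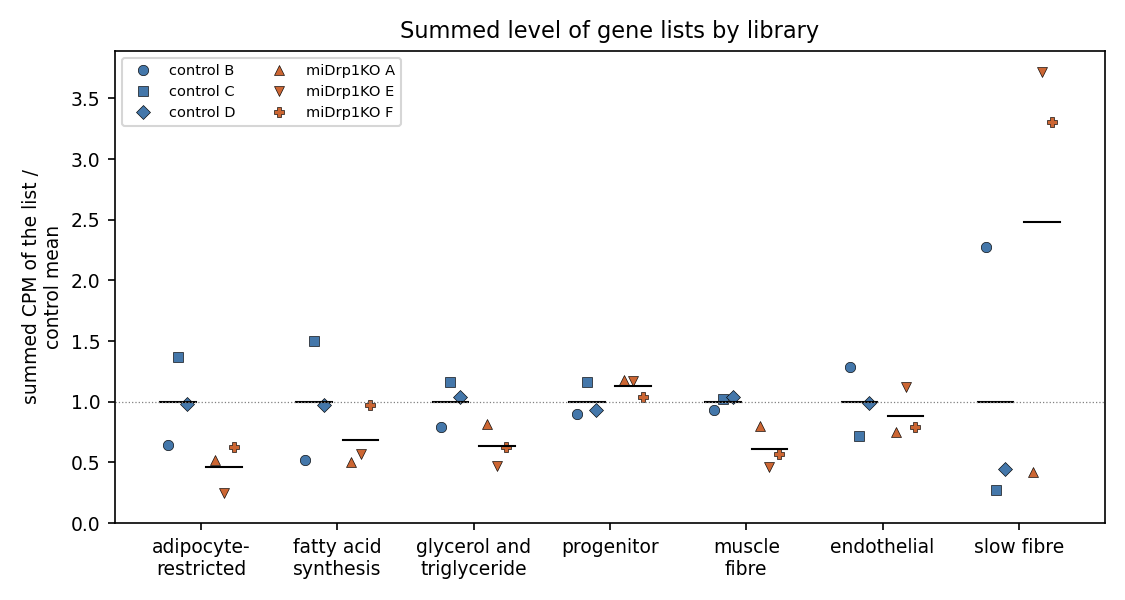
Summed CPM of gene lists in each library, divided by the control mean of the list (y axis, starting at 0), with a black line at the group mean. The adipocyte-restricted sum of miDrp1KO libraries averages 0.465 of control and the muscle fibre sum 0.610, while the slow fibre sum spreads widely in both groups.

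Of the markers of adipocyte progenitors and fibro-adipogenic cells, 10 of 12 tested genes had an estimate above 0, at a median log2 fold change of 0.26. Among all tested genes, 48.0% had an estimate below 0. In edgeR's test 1 of the 12 (8.33%) was higher at an unadjusted p under 0.05, near the 4.68% of all tested genes higher and 10.9% in either direction. That gene was *Dpp4*, at 12.9, 24.8 and 15.5 CPM in control and 35.8, 32.4 and 23.4 CPM in miDrp1KO libraries, with overlap. Its log2 fold change was 0.79 (edgeR adjusted p = 0.382). The list had a summed level of 402 to 518 CPM in control and 462 to 527 CPM in miDrp1KO libraries. *Pdgfra*, the defining receptor of these cells, was at 102 ± 22.5 and 106 ± 4.93 CPM (SD, n = 3 each). Endothelial markers summed to 208 to 372 CPM in control and 216 to 324 CPM in miDrp1KO muscle. Of their 9 estimates 8 were below 0 (median −0.16), against 48.0% of all tested genes. In edgeR's test 0 of 9 had an unadjusted p under 0.05, which is near the 10.9% of all tested genes. Of the 12 muscle fibre markers, mostly of fast fibres, 11 had an estimate below 0 (median −0.60), 4 (33.3%) were lower at an unadjusted p under 0.05, against 6.22% of all tested genes, and 0 had an adjusted p under 0.05 in edgeR's test. In 6 of the 12 (50%, against 10.3% of all tested genes) the groups did not overlap, all lower. They had a summed level of 159844 to 179338 CPM in control and 79708 to 137424 CPM in miDrp1KO libraries. Slow fibre markers summed to 446, 54.2 and 87.3 CPM in control and 82.0, 728 and 647 CPM in miDrp1KO libraries, and macrophage markers to 171 to 312 and 257 to 292 CPM, with 4 of 9 (44.4%) higher at an unadjusted p under 0.05, against 4.68% of all tested genes. Red cell markers summed to 47.4 to 273 CPM in control and 74.1 to 232 CPM in miDrp1KO muscle, and Schwann cell markers to 36.7 to 51.6 and 40.7 to 73.2 CPM. The part that fibre type, ribosomal RNA share or any of these cell types has in the adipocyte values was not tested.

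Of 10 markers of brown and beige fat, 9 were tested, of which 6 had a higher and 3 a lower estimate, at a median of 0.64 on the log2 scale. Of these, 1 (11.1%, against 4.68% of all tested genes higher and 10.9% in either direction) stood at an unadjusted p under 0.05. *Cox8b*, a respiratory chain subunit that muscle fibres also make, was that gene, higher in miDrp1KO muscle (162, 197 and 153 CPM in control, 218, 273 and 348 CPM in miDrp1KO libraries, log2 fold change 0.71, edgeR adjusted p = 0.379). No gene of this list had an adjusted p under 0.05 in edgeR's test.

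The members were also set against *Adipoq* itself, as counts of a gene per count of *Adipoq* in the same library, which needs no normalization between libraries. *Retn* held 0.276, 0.288 and 0.285 counts per *Adipoq* count in control and 0.311, 0.346 and 0.435 in miDrp1KO libraries. *Plin1* held 0.587, 0.488 and 0.570 in control and 0.722, 0.494 and 0.499 in miDrp1KO libraries, and *Cidec* 0.667, 0.629 and 0.641 against 0.936, 0.524 and 0.695. *Cfd* held 5.07, 4.81 and 4.44 in control and 5.29, 4.73 and 5.88 in miDrp1KO libraries. The miDrp1KO range of *Plin1*, *Cidec* and *Cfd* covered all or part of the control range. *Lep* and *Adrb3*, with fewer counts, spread more widely. *Elovl6* held 0.115, 0.124 and 0.122 counts per *Adipoq* count in control and 0.172, 0.591 and 0.456 in miDrp1KO libraries, and *Acly* 1.15, 1.08 and 0.927 against 1.75, 3.54 and 2.23. In 5 of the 7 fatty acid synthesis genes and in 1 of the 6 other adipocyte-restricted markers (*Retn*), every miDrp1KO ratio was above every control ratio. Since *Adipoq* is lower in miDrp1KO libraries, the same held for 52.0% of the other tested genes, so 5 of 7 is near that background.

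**Figure D4:**
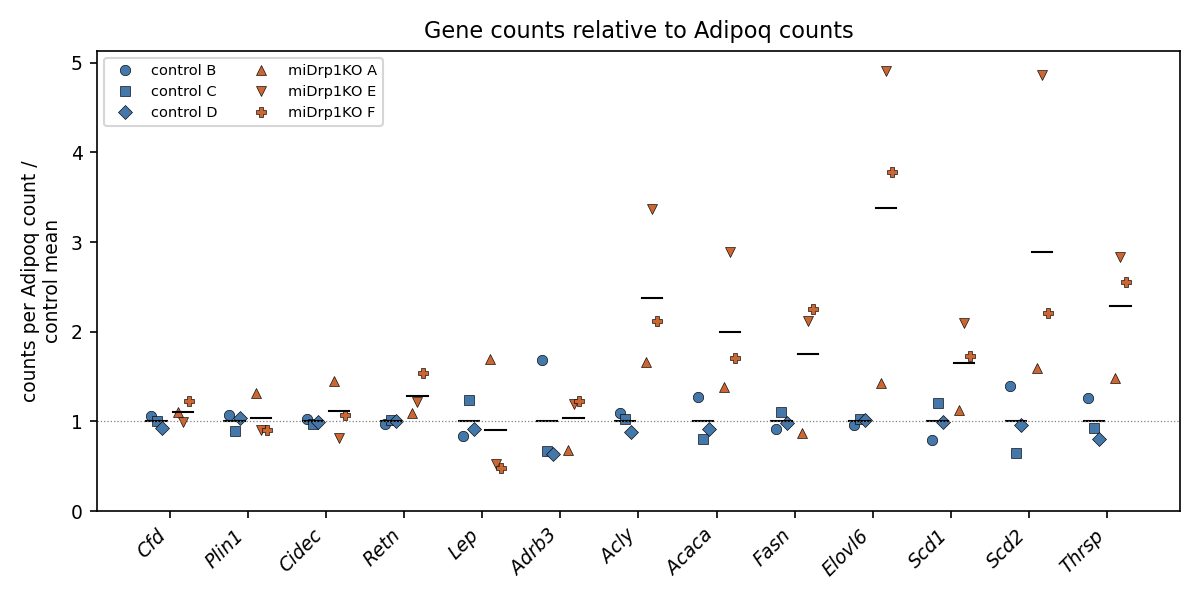
Counts of each gene per count of Adipoq in the same library, divided by the control mean of that ratio (y axis, starting at 0), with a black line at the group mean. Cfd, Plin1 and Cidec lie near 1 in most miDrp1KO libraries, Lep and Adrb3 scatter, and every miDrp1KO ratio lies above every control ratio for 5 of the 7 fatty acid synthesis genes, against 52.0% of all other tested genes.

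Further genes of these pathways were counted from lists drawn up by known function, but with earlier results of these data known, so their shares, like those of the members, are descriptions and not independent support. Of 35 tested adipocyte genes outside the members, 24 had a lower and 11 a higher estimate, at a median log2 fold change of −0.20, and 9 stood at an unadjusted p under 0.05, all lower (25.7%, against 6.22% of all tested genes lower and 10.9% in either direction). The 3 with the lowest p were *Npr3*, a natriuretic peptide clearance receptor (30.9, 35.8 and 36.4 CPM in control, 19.0, 23.9 and 15.9 CPM in miDrp1KO muscle), *Tusc5*, an insulin-responsive protein of fat (8.13 ± 1.92 and 4.31 ± 1.20 CPM, SD, n = 3 each), and *Slc7a10*, an amino acid transporter of adipocytes (3.42 ± 0.338 and 1.47 ± 0.794 CPM, SD, n = 3 each). Their edgeR adjusted p-values were 0.362, 0.362 and 0.379. Other fat cell genes of low count in the same list, named after their values were seen, went both ways. Some had estimates nearer 0, with 0.18 for *Adig*, −0.05 for *Hcar1* and −0.21 for *Ffar2* on the log2 scale. Others were lower without overlap, with −1.19 for *Tmem45b*, −1.01 for *Lgals12* and −0.79 for *Aoc3* (edgeR adjusted p = 0.382, 0.407 and 0.379).

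Of 42 tested lipogenic and triglyceride synthesis genes outside the members, 26 were lower and 16 higher in estimate, at a median log2 fold change of −0.10, and 6 stood at an unadjusted p under 0.05, all lower (14.3%, against 6.22% of all tested genes lower and 10.9% in either direction). The 3 with the lowest p are given with their values. *Gpat3*, a glycerol-3-phosphate acyltransferase, was at 10.7, 8.02 and 8.45 CPM in control and 5.20, 5.22 and 5.76 CPM in miDrp1KO muscle (log2 fold change −0.75). *Gpam*, the mitochondrial acyltransferase of the same step, was at 225, 193 and 232 CPM in control and 134, 155 and 120 CPM in miDrp1KO muscle (−0.67). *Lpin1*, the phosphatidate phosphatase of muscle and fat, was at 335 ± 49.5 and 203 ± 43.3 CPM (SD, n = 3 each, log2 fold change −0.72). In all 3 genes the control and miDrp1KO libraries did not overlap, and edgeR's adjusted p-values were 0.362, 0.362 and 0.379. Over the 42 genes, the groups did not overlap for 6 lower and 2 higher genes (19.0%), near the 18.0% of all tested genes.

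Cholesterol synthesis genes showed no common direction, with 11 of 22 lower and 11 higher, a median log2 fold change of 0.01 and 3 at an unadjusted p under 0.05 (13.6%, near the 10.9% of all tested genes). These were *Mvd* and *Msmo1*, enzymes of the mevalonate and sterol steps, with log2 fold changes of 0.82 and 0.50, and *Sc5d*, a sterol desaturase, with −0.40.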

How the data were processed

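The authors deposited raw counts, the whole number of reads counted per gene (Entrez identifier) in each quadriceps library. According to the methods, RNA was depleted of ribosomal RNA, and reads were aligned to GRCm38 and counted with Rsubread 2.4.2. The submitters' processing notes name DESeq2 1.30.0. Libraries were sequenced in a pair of pools, and which library was in which is not given in the sources used here. Overlapping genes and close copies are uncertain. Of the genes, 874 had no symbol.

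Here, edgeR 4.0.16 under R 4.3.3 was run on the counts of all 6 libraries (filterByExpr, TMM, robust quasi-likelihood fit, Benjamini-Hochberg over 16483 genes, threshold 0.05), and the fit was tested on simulated data. Standard errors were taken from the F statistic. DESeq2 1.42.0, RLE and upper quartile factors, no low-count filter and leaving out each library were the alternatives. Library totals alone and 2 other filtering settings of DESeq2 were added after the data were seen. Members and gene lists were chosen with earlier results of these data known. The naming rule took all members, those of at least 1 CPM on average with their values by library or group means. It also took the 3 lowest p of the further adipocyte, lipogenic and cholesterol synthesis lists, and was not applied to the other lists. *Pdgfra* was named as the defining receptor of its cells and not by its p, and *Dnm1l* as the deleted gene. *Dpp4* and *Cox8b* were named as the only genes of their lists at an unadjusted p under 0.05 in edgeR's test. Markers of the other cell types were only summed and counted by list. Libraries of 13989588 to 62042255 counts limit precision for the rarest genes. Coordinates and promoters are RefSeq's on GRCm38.p6.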

Additional observations from a re-analysis of the deposited data

How the results depend on the processing

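The direction of 24 of the 31 tested members held in all 13 alternatives run, and 17 of 403 values had the opposite sign, none of them past the threshold. The number of members with an adjusted p under 0.05 was 0 in edgeR, 4 with DESeq2, 1 with its filtering set to 0.05, 3 without its filtering, 1 (*Sncg*) with no filter on low counts and 1 (*Pck1*) with library totals alone, and 0 in each fit that left out 1 library. At an unadjusted p under 0.05 it ran from 7 to 15, against 10. These were not all lower in every fit. Lower were 10 of 13 without miDrp1KO replicate A and 10 of 11 with upper quartile factors. With no filter on low counts and with library totals alone, 9 of 10 were lower. Upper quartile factors gave 0.054 for *Thrsp* and 0.012 for *Pnpla3*. Library totals alone, which put the median of all genes at 0.26 on the log2 scale, gave 0.11 for *Acly*, 0.17 for *Thrsp* and 0.19 for *Pnpla3*. Without turning the sign, they gave −0.14 for *Fabp4*, −0.12 for *Aqp7*, −0.07 for *Acaca*, −0.14 for *Srebf1* and −0.31 for *Fasn*. Estimates above 0 moved further from it, to 0.50 for *Scd2*, 0.43 for *Dgat2* and 0.63 for *Elovl6*. The cause was not tested. Without 1 library the log2 fold change ran from −0.14 to 1.16 for *Cidea*, −1.87 to 0.27 for *Car3*, −0.31 to 0.18 for *Acly*, −0.057 to 0.73 for *Elovl6*, −0.44 to 0.17 for *Thrsp*, −0.16 to 0.45 for *Dgat2* and −0.21 to 0.055 for *Pnpla3*. The median over members stayed between −0.79 and −0.39 in all alternatives, and the summed adipocyte-restricted ratio between 0.387 and 0.578. No paired analysis was possible because control letters B, C and D are not shared by the miDrp1KO libraries. Depth limits *Ucp1* and *Cidea* most.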
